A study of Arabidopsis thaliana with 28 samples.

Results

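ROS1 (AT2G36490) and IBM1 (AT3G07610) were followed window by window in libraries of RNA bound to RNA polymerase V (Pol V) and in DNA methylation averages of Arabidopsis thaliana. Members were all windows of the deposited count table whose midpoint lies in either gene or within 1 kb of it. There were 59 such windows for ROS1, on chromosome 2 from 15306901 to 15315800, and 61 for IBM1, on chromosome 3 from 2424901 to 2434100 (TAIR10). The whole table holds 794311 windows, most of them 200 bp long and starting every 150 bp, so that neighbours share 50 bp and can count the same read. Pol V signal peaked at the higher-coordinate end of ROS1 and inside the body of IBM1, and both peaks were nearly empty in nrpe1.

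ROS1 is a DNA glycosylase that cuts 5-methylcytosine out of DNA and so removes methylation. Its promoter carries a short sequence whose methylation by RNA-directed DNA methylation (RdDM) is known to keep the gene active, which ties demethylation to the methylation pathway. IBM1 is a jumonji-type histone demethylase that removes H3K9 methylation from transcribed genes and thereby keeps CHG methylation out of gene bodies. A large intron of IBM1 is itself methylated, and that methylation is needed for the full-length transcript. In RdDM, Pol V makes a scaffold RNA, siRNAs bound to AGO4 pair with it, and DNA methylation is laid down in CG, CHG and CHH contexts (H is A, C or T).

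RNA was pulled down with an antibody against NRPE1, the largest Pol V subunit, from 18-day-old Columbia seedlings, and RNA 5′ ends were sequenced (IPARE). The 24 libraries come from 11 genotypes. They are nrpe1 (n = 5), dms5-1 and drd3-3 (n = 2 each), drd1, dms3, the suvh2/suvh9 double mutant, suvh2 and suvh9 (n = 1 each), ago4 and spt5l (n = 2 each) and wild-type Col-0 (n = 6). DMS5 and DRD3 are listed as synonyms of NRPE1 in the RefSeq gene table; DRD1 and DMS3 help Pol V onto chromatin; SUVH2 and SUVH9 bind methylated DNA and bring Pol V to it; SPT5L resembles an elongation factor and works with Pol V. The alleles of nrpe1, drd1, dms3, suvh2, suvh9, ago4 and spt5l are not given in the labels. Bisulfite sequencing covered leaves of 3.5-week-old nrpe1 and Col-0 plants, 2 samples each.

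Library totals were 840847 to 2948073 window counts in nrpe1 and 1098651 to 5647081 in Col-0, and ran from 785943 (drd3-3) to 6957714 (ago4) over all 24 libraries. Windows of ribosomal DNA took 49.6% to 63.2% of the counts in nrpe1 and 29.1% to 41.4% in Col-0, so counts scaled to the library total (CPM) depend on what the rest of the library holds. Values were therefore also scaled to counts in windows that the deposited class lists call not transcribed by Pol V, without ribosomal DNA (class scaling below). The counts are RNA bound with the antibody, so a lower value does not measure lower expression of ROS1 or IBM1. Fewer cells with the RNA and less RNA per cell cannot be told apart in these seedlings.

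The deposited class lists put 4 ROS1 windows into the RdDM class, 18 into the class of Pol V transcription outside RdDM (non-RdDM) and 37 into the class not transcribed by Pol V. For IBM1 the numbers were 4, 18 and 39. RdDM windows thus made up 6.78% of the ROS1 windows and 6.56% of the IBM1 windows, against 19.9% of the whole table. At ROS1, 3 of the RdDM windows adjoin each other from 15314701 to 15315200, 1 with its midpoint in the gene and 2 in the flank. The remaining one, from 15308851 to 15309050, lies near the lower-coordinate end of the gene. At IBM1 all 4 RdDM windows adjoin each other from 2430151 to 2430800, inside the gene. The gene table used here holds no strand, exon or intron positions, so no end is called the start and no window is placed in an intron. Sample titles carry a tag (none, or gp2 to gp6), here called a set, and the labels tie the class lists to nrpe1 and Col-0 of 3 sets: untagged, gp3 and gp4. In those libraries, values by class are not independent of the classes. The same limit holds for the class scaling, which uses windows picked by these lists.

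ROS1 is described first. The window with most Col-0 counts, from 15314701 to 15314900, had 2, 0, 0, 3 and 0 counts in the nrpe1 libraries of the untagged set, gp3, gp4, gp5 and gp6. In Col-0 it had 24 counts at the lowest, a median of 82.5 and 232 at the highest. The groups did not overlap, and 3 of the 5 nrpe1 libraries held no read. The window was picked by its Col-0 counts, which favours such a separation, so the lack of overlap is no result about ROS1. In CPM the window had 0.591 ± 0.889 in nrpe1 (SD, n = 5) and 28.4 ± 11.3 in Col-0 (SD, n = 6). The next window, from 15314851 to 15315050, had 2, 0, 0, 2 and 0 counts in nrpe1 and 21 to 181 in Col-0. The outermost window of the block, from 15315001 to 15315200, had 0 counts in every nrpe1 library and 3 to 11 in Col-0.

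The same window was read against Col-0 of the same set, per library total, with exact 95% intervals that cover counting error only. The ROS1 peak window held 2.33% of the Col-0 level in nrpe1 of the untagged set (0.280% to 8.50%) and 8.68% in nrpe1 gp5 (1.72% to 27.3%). The nrpe1 libraries of gp3, gp4 and gp6 held 0 counts there, with upper limits of the same intervals at 10.7%, 5.63% and 21.7% of Col-0. Scaled to the class counts, nrpe1 of the untagged set held 0.945% (0.114% to 3.45%) and nrpe1 gp5 held 6.25% (1.24% to 19.6%), and the upper limits of gp3, gp4 and gp6 were 7.84%, 2.79% and 19.1%, so these shares depend on the scaling. In gp6, the shallowest set with both genotypes, the Col-0 window itself held 24 counts.

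Away from this block ROS1 held few counts. The window on its inner side, from 15314551 to 15314750, had 1, 0, 0, 0 and 0 counts in nrpe1 and 0 to 21 in Col-0, where gp3 was the library at 0. Near the opposite end of the gene, the windows from 15308401 to 15308750 held no nrpe1 read and summed to 16 and 20 counts over the Col-0 libraries. The single RdDM window there had 0 counts in every nrpe1 library and 4, 1, 2, 0, 0 and 0 in Col-0 of the untagged set and gp2 to gp6. In the middle of the gene, the windows starting at 15311101 and 15311251, listed as not transcribed by Pol V, had 1 count each in nrpe1 and 16 and 9 in Col-0. Summed over all libraries of a genotype, 13 of 59 ROS1 windows had a read in nrpe1 and 41 in Col-0. The block took 45.0% of the 20 ROS1 counts in nrpe1 and 82.9% of the 1327 in Col-0.

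**Figure D1:**
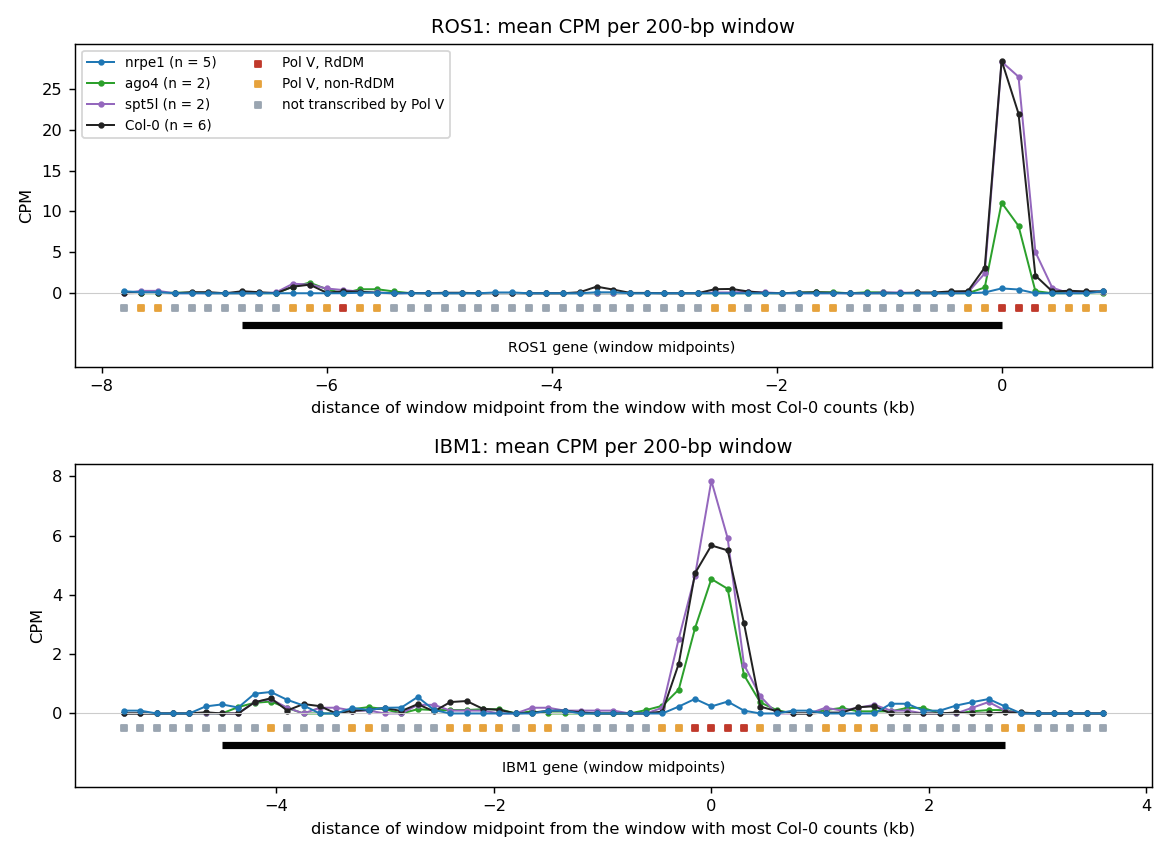
Mean CPM per 200-bp window along ROS1 (upper) and IBM1 (lower) in nrpe1, ago4, spt5l and Col-0, against the distance of the window midpoint from the window with most Col-0 counts in kb; squares give the deposited class and the black bar the gene. At that window ROS1 had 0.591 CPM in nrpe1 and 28.4 in Col-0, and IBM1 had 0.238 CPM in nrpe1 and 5.67 in Col-0.

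Over the whole ROS1 locus, nrpe1 had 7, 2, 2, 7 and 2 counts in the untagged set, gp3, gp4, gp5 and gp6, against 60 to 501 in Col-0 (median 188.5). This was 2.45 ± 1.62 CPM in nrpe1 and 63.6 ± 23.3 CPM in Col-0, with no overlap. The log2 change was −3.45 ± 0.52 (SE), and its p, adjusted by Benjamini-Hochberg over 21516 loci, was 6.14e-06 (edgeR, quasi-likelihood F-test). Lower calls were common in this comparison: 50.8% of all loci tested were lower, with a median change of −1.20, and 64.7% under the class scaling, where the median was −3.23 and ROS1 stood at −5.49. ROS1 also held fewer reads outside its RdDM windows, with 1.40 ± 0.620 CPM in nrpe1 and 10.8 ± 4.81 CPM in Col-0. The windows from 15314551 and 15315151 each share 50 bp with the block. They held 1 and 0 of these 11 counts in nrpe1, and 57 and 7 of these 220 counts in Col-0. Part of this difference may thus be reads of the block.

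Of the ROS1 windows, 2 passed the filter on low counts, the peak window and its outer neighbour, and both were lower in nrpe1. They were admitted through their Col-0 counts, and 77.6% of all windows tested were lower, so the count is no result about ROS1. Their log2 changes were −4.17 ± 0.91 (adjusted p = 0.00021) and −4.13 ± 0.86 (adjusted p = 0.00013, both edgeR). The median change over the 15296 windows tested was −3.90. In the sets the class lists are not tied to, the 4 RdDM windows of ROS1 summed to 5 counts in nrpe1 (gp5 and gp6) and 366 in Col-0 (gp2, gp5 and gp6).

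IBM1 had a lower peak. Its window with most Col-0 counts, from 2430301 to 2430500, had 0, 0, 0, 0 and 1 counts in nrpe1 of the untagged set, gp3, gp4, gp5 and gp6. Col-0 had 2 at the lowest, a median of 19 and 49 at the highest. This was 0.238 ± 0.532 CPM in nrpe1 and 5.67 ± 2.36 CPM in Col-0, where the ROS1 peak window, of the same length, had 28.4 CPM. The groups did not overlap, and lay closest in gp6, where nrpe1 had 1 count and Col-0 had 2. This window too was picked by its Col-0 counts, so the lack of overlap is no result about IBM1.

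The other windows of the IBM1 block were low in nrpe1 too. The window from 2430151 to 2430350 had 2, 1, 2, 0 and 0 counts in nrpe1 and 0 to 38 in Col-0, so these counts overlapped. The window from 2430451 to 2430650 had 1, 1, 0, 0 and 1 in nrpe1 and 2 to 52 in Col-0. The window from 2430601 to 2430800 had 1 count in 1 nrpe1 library and 0 to 30 in Col-0. Col-0 gp6 was the low library in each of these windows: its block held 3.64 CPM, and the 5 other Col-0 libraries held 16.5 to 29.9 CPM. The block averaged 1.23 ± 0.949 CPM in nrpe1 and 18.9 ± 8.98 CPM in Col-0.

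Per library total, IBM1 reads outside the block had a similar level in both genotypes. Without the RdDM windows the IBM1 locus had 7.26 ± 2.89 CPM in nrpe1 and 6.46 ± 1.48 CPM in Col-0. These ranges overlapped, from 3.73 to 11.6 CPM in nrpe1 and from 4.76 to 8.32 CPM in Col-0. Scaled to the class counts they ran from 13.5 to 36.1 in nrpe1 and from 23.1 to 51.2 in Col-0, so the level of nrpe1 relative to Col-0 depends on the scaling. The windows from 2430001 and 2430751 each share 50 bp with the block. They held 2 and 0 of the 63 nrpe1 counts outside it, and 40 and 6 of the 132 Col-0 counts. The level outside the block thus includes the edges of the peak. The IBM1 windows listed as not transcribed by Pol V had 5.67 ± 1.77 CPM in nrpe1 and 1.98 ± 2.00 CPM in Col-0. In the sets tied to the class lists, these windows summed to 34 counts in nrpe1 and 11 in Col-0 (3 libraries each), which are not independent of the class. In the other sets they summed to 15 in nrpe1 (2 libraries) and 21 in Col-0 (3 libraries), not scaled for depth. Library totals there were 1500643 and 840847 in nrpe1 (gp5 and gp6). In Col-0 they were 4076398, 1736607 and 1098651 (gp2, gp5 and gp6). The nrpe1 sum thus came from less depth, and the unscaled sums show no reversal. The share of ribosomal DNA windows moved with genotype as given above, and its part in these levels was not tested. Reads outside the block lay, for example, in the windows from 2426101 to 2426600 near the lower-coordinate end of the gene, with summed counts of 6, 7 and 5 in nrpe1 and 4, 10 and 3 in Col-0. At the other end, the window from 2432851 to 2433050 had 0, 0, 1, 1 and 1 counts in nrpe1 and none in Col-0. The flanks were almost empty, with 3 counts in nrpe1 and 2 in Col-0 over 12 windows. The block took 13.7% of the 73 IBM1 counts in nrpe1 and 76.4% of the 559 in Col-0.

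The IBM1 locus as a whole had 20, 13, 22, 11 and 7 counts in nrpe1, against 13 to 216 in Col-0 (median 83.5). This was 8.49 ± 3.07 CPM in nrpe1 and 25.4 ± 8.80 CPM in Col-0, and the ranges overlapped, with 12.8 CPM at the highest in nrpe1 and 11.8 CPM at the lowest in Col-0. The fitted log2 change was −0.37 ± 0.38, and did not pass (adjusted p = 0.362, edgeR). The call depended on the scaling. In fits by locus, library totals are the counts summed over all loci, not the window totals given above. Under the class scaling the change was −2.36 with an adjusted p of 0.000211, under library totals −2.06 with 0.000535, and with DESeq2 −1.28 with 0.00143. Of all loci, 64.7%, 61.9% and 57.7% were lower in these 3 fits, in that order. With the gene alone, without the flanks, IBM1 changed by −1.40 (adjusted p = 0.00396, edgeR), where 41.7% of all genes tested were lower. All of these values had the same direction. Under these scalings the median of all loci lay below IBM1, at −2.15 to −3.23, whereas with the genes alone it was −0.14.

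Of the IBM1 windows, 2 passed the filter and both were lower in nrpe1. They too were admitted through their Col-0 counts, and with 77.6% of all windows lower the count is no result about IBM1. The peak window changed by −4.18 ± 0.76 (adjusted p = 3.41e-05) and the window from 2430151 by −1.86 ± 0.64 (adjusted p = 0.00896, both edgeR). Both are close to the filter's limit. Without the Col-0 library of the untagged set, gp2, gp3, gp4 or gp5, 0 IBM1 windows were left to test, and without nrpe1 gp3, gp5 or gp6 only 1 was lower. With the set as a replicate block 1 was lower, against 77.3% of all windows. With a filter of 5 counts in all, 5 of 16 IBM1 windows and 6 of 16 ROS1 windows were lower, among them all 4 windows of the IBM1 block and all 3 of the ROS1 block. Of all windows tested with that filter, 29.9% were lower. Under that filter the IBM1 windows near the lower-coordinate end had positive values that did not pass, for example 2.18 ± 1.11 for the window from 2426401 (adjusted p = 0.108, edgeR).

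The ratio of ROS1 to IBM1 counts within a library needs no scaling. On the scale log2((ROS1 count + 1)/(IBM1 count + 1)) it was −1.39, −2.22, −2.94, −0.58 and −1.42 in nrpe1 of the untagged set, gp3, gp4, gp5 and gp6. In Col-0 it was 0.35 at the lowest, 1.41 at the median and 2.12 at the highest. Every nrpe1 library held more IBM1 than ROS1 counts, and every Col-0 library held more ROS1 than IBM1 counts. The difference of nrpe1 minus Col-0 was −3.002 ± 0.48 (SE), with p = 0.00433 in an exact two-sided permutation test of 462 splits. As the groups separate fully, this is the smallest p that this two-sided test can give. Within sets it was −2.91 ± 1.21 (SD, 5 pairs), lower in nrpe1 in all 5, with p = 0.0625, the smallest that an exact sign-flip test of 5 pairs can give. This ratio counts whole loci, and thus also the IBM1 reads outside the block.

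**Figure D2:**
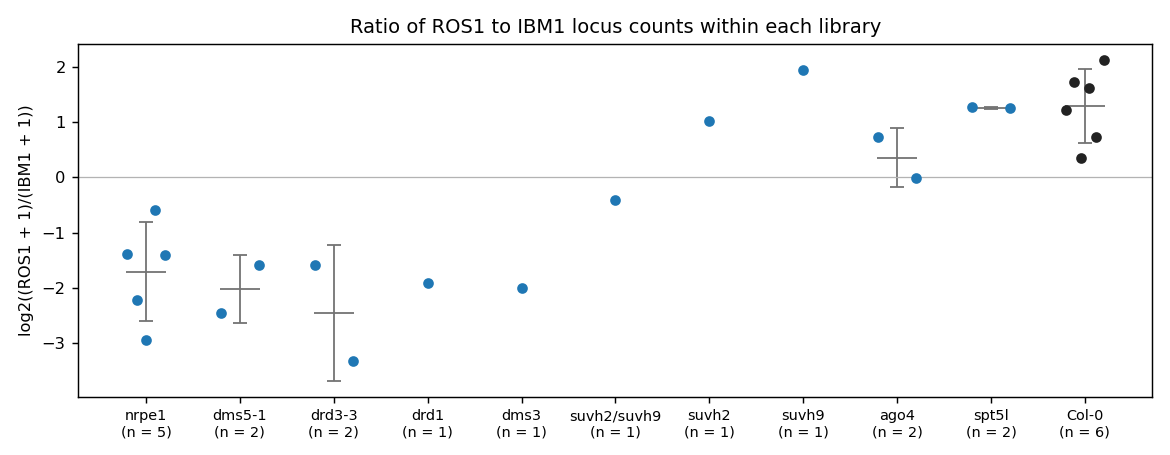
log2((ROS1 count + 1)/(IBM1 count + 1)) for each of the 24 libraries by genotype; points are libraries, and bars give the mean and SD where a genotype has 2 or more. nrpe1 lies between −2.94 and −0.58 and Col-0 between 0.35 and 2.12.

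The other replicated mutants were compared with Col-0 and with nrpe1 in 1 model of 19 libraries, so these comparisons share their Col-0 and nrpe1 libraries. dms5-1 had 0 counts at the ROS1 peak window in gp5 and in gp6, where Col-0 had 40 and 24, with exact 95% upper limits of 18.3% and 15.4% of the Col-0 level per library total. Over the whole ROS1 locus dms5-1 had 1 and 0 counts. The fitted log2 change against Col-0 was −6.06 ± 1.04 (adjusted p = 5.61e-05, edgeR), in a comparison with 40.5% of loci lower. Without dms5-1 gp5 the remaining library holds no read and the fitted value of −10.35 is no measure of size. drd3-3 had 1 count at the ROS1 peak window in gp5 and 0 in gp6. Over the locus drd3-3 had 2 and 0 counts, and the change was −4.81 ± 0.92 (adjusted p = 0.0013, with 21.3% of loci lower). It also took the value −10.35 without drd3-3 gp5. Both tested ROS1 windows were lower in dms5-1 (adjusted p = 0.000887 for both) and in drd3-3 (adjusted p = 0.0149 and 0.0159, all edgeR), where 76.7% and 41.1% of windows were lower. They passed the filter through genotypes with high counts there, so these calls are no result about ROS1.

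At IBM1, dms5-1 had 0 counts at the peak window in both libraries, and drd3-3 had 2 in gp5 and 0 in gp6. Col-0 had 13 and 2 there, so gp6 is too shallow to compare. The locus held 10 and 2 counts in dms5-1 and 8 and 9 in drd3-3. The changes against Col-0 were −1.19 ± 0.59 in dms5-1 (adjusted p = 0.096) and −0.45 ± 0.55 in drd3-3 (adjusted p = 0.562), and neither passed in edgeR. Under the class scaling both passed, at −2.58 (adjusted p = 0.0056, with 56.0% of loci lower) in dms5-1 and −1.93 (adjusted p = 0.0353, with 43.6% of loci lower) in drd3-3. dms5-1 was also called lower without its gp5 library, at −3.04 (adjusted p = 0.019). Of 3 IBM1 windows tested in this model, 2 were lower in dms5-1 and none in drd3-3, whose lowest adjusted p was 0.0941 (edgeR). Of all windows, 76.7% were lower in dms5-1 and 41.1% in drd3-3. The 3 windows passed the filter through genotypes with high counts there, so the count is no result about IBM1. Against nrpe1, dms5-1 differed by −2.23 ± 1.32 at ROS1 and −0.45 ± 0.62 at IBM1, and drd3-3 by −0.98 ± 1.14 and 0.29 ± 0.58. None of these passed, and the errors are wide.

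At the ROS1 locus ago4 was higher than nrpe1 and was not called lower than Col-0. The ROS1 peak window had 109 counts in ago4 gp2 and 28 in ago4 gp3, and Col-0 of the same sets had 138 and 59. Per library total this was 46.3% of Col-0 (35.7% to 59.9%) and 53.8% (33.0% to 85.7%), so both counting intervals lay below the Col-0 level. The whole ROS1 locus had 33.3 and 16.4 CPM in ago4, against 74.6 and 29.1 CPM in Col-0 of the same sets. Against all Col-0 libraries the log2 change was −1.01 ± 0.54 and did not pass (adjusted p = 0.557, edgeR, with 2.20% of loci lower). Against nrpe1 ROS1 was higher in ago4, by 2.82 ± 0.58 (adjusted p = 0.00014, with 40.4% of loci higher). The peak window of IBM1 had 31 and 20 counts in ago4, against 23 and 24 in Col-0. These were 79.0% of Col-0 (44.6% to 142%) and 94.4% (49.5% to 178%). Over the IBM1 locus the changes were −0.12 ± 0.45 against Col-0 (adjusted p = 1.00) and 0.61 ± 0.48 against nrpe1 (adjusted p = 0.297), and neither passed.

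spt5l was not called different from Col-0 at either locus. The ROS1 peak window had 169 counts in the untagged set and 123 in gp3, against 232 and 59 in Col-0. Relative to Col-0 of its set it had 79.6% (64.9% to 97.5%) in the untagged set and 199% (145% to 276%) in gp3, so the sets pointed opposite ways. Scaled to the class counts these were 58.0% (47.3% to 71.0%) and 164% (119% to 228%). The IBM1 peak window had 43 and 38 counts in spt5l, against 49 and 24 in Col-0. The locus changes against Col-0 were −0.05 ± 0.50 at ROS1 and −0.01 ± 0.45 at IBM1 (adjusted p = 1 for both, edgeR, with 0.436% of loci lower), and their sign turned with the setting. A p that misses the threshold does not show equal levels. Against nrpe1 spt5l was higher at ROS1, by 3.78 ± 0.57 (adjusted p = 1.89e-06, with 40.7% of loci higher), and not at IBM1, at 0.72 ± 0.47 (adjusted p = 0.203), which passed under the class scaling at 2.25 (adjusted p = 0.00162, with 53.9% of loci higher). No ROS1 or IBM1 window passed against Col-0 in ago4 or spt5l, where 8.53% and 3.81% of all windows were lower; of these 10 tests the smallest unadjusted p was 0.184.

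**Figure D3:**
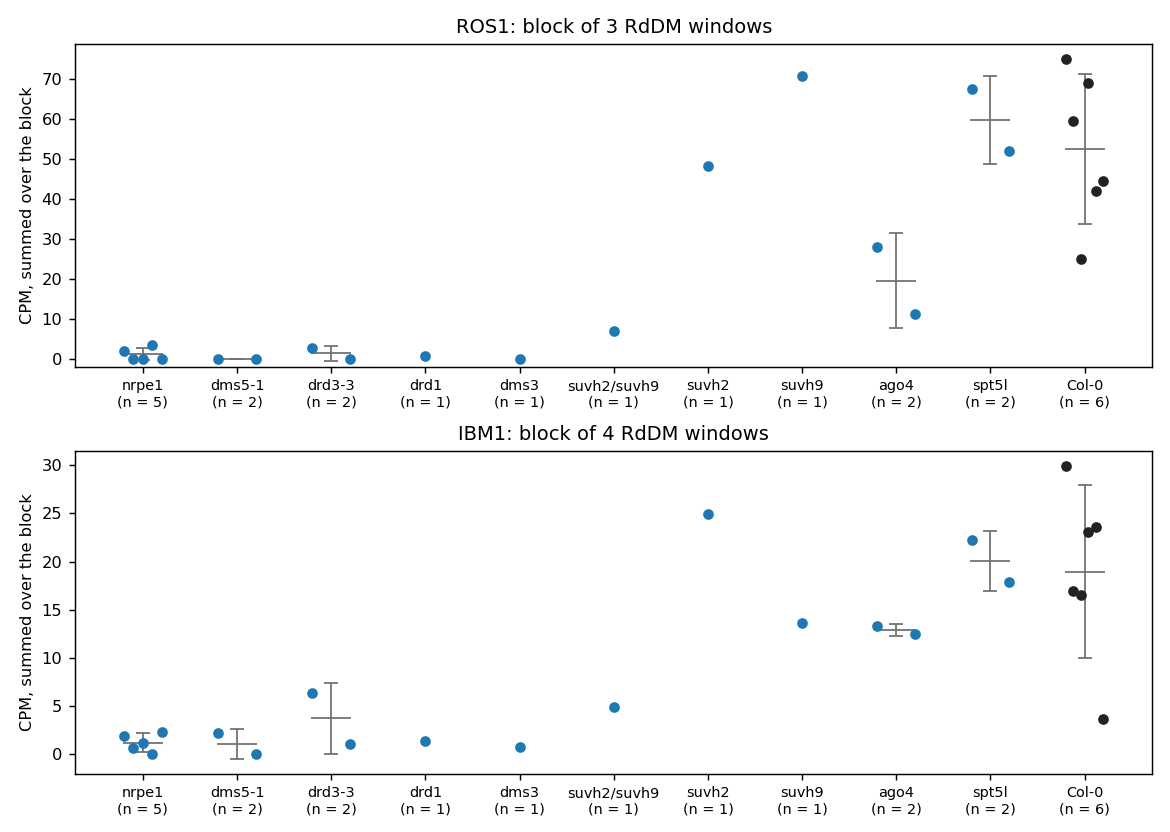
CPM summed over the block of RdDM windows of ROS1 (3 windows, upper) and IBM1 (4 windows, lower) by genotype; points are libraries, and bars give the mean and SD where a genotype has 2 or more. The ROS1 block lies at 0 to 3.33 CPM in nrpe1 and at 24.9 to 75.1 CPM in Col-0, and the IBM1 block at 0 to 2.38 CPM in nrpe1 and 3.64 to 29.9 CPM in Col-0.

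Among the genotypes with 1 library, all of gp4, no test is possible, and counts are given with exact 95% Poisson intervals that cover counting error only. The ROS1 peak window had 1 count in drd1 (0.0253 to 5.57), 0 in dms3 (0 to 3.69) and 11 in the suvh2/suvh9 double mutant (5.49 to 19.7). The single mutants had 80 in suvh2 (63.4 to 99.6) and 115 in suvh9 (94.9 to 138). In the same set nrpe1 had 0 and Col-0 had 106 (86.8 to 128). Thus drd1, dms3 and nrpe1 held 0 or 1 count, and the intervals of both single mutants lay above that of the double mutant. The Poisson intervals of drd1 and the double mutant overlap slightly. Relative to Col-0 of gp4, drd1 held 0.897% per library total (0.0225% to 5.11%), below the interval of the double mutant. Per library total the double mutant held 11.6% of Col-0 (5.64% to 21.7%), suvh2 61.2% (45.2% to 82.6%) and suvh9 96.4% (73.4% to 127%). Scaled to the class counts these were 5.35%, 37.7% and 94.5%, so the values of the double mutant and of suvh2 depend on the scaling.

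IBM1 held fewer counts. Its peak window had 1 count in drd1, 1 in dms3, 3 in suvh2/suvh9 (0.619 to 8.77), 23 in suvh2 (14.6 to 34.5) and 11 in suvh9 (5.49 to 19.7). The nrpe1 library of gp4 had 0 and Col-0 had 15 (8.40 to 24.7). The intervals of suvh2, suvh9 and Col-0 overlap, so no order among these 3 can be read at this depth. The whole IBM1 block had 24.9 CPM in suvh2 and 13.7 in suvh9, against 23.1 in Col-0 gp4. The block at ROS1 had 48.4 CPM in suvh2 and 70.9 in suvh9, against 69.2 in Col-0 gp4.

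The suvh2 library also held reads in the body of ROS1. In windows listed as not transcribed by Pol V it had 57 ROS1 counts (16.9 CPM), against 13 in suvh9 (4.23 CPM), 0 in suvh2/suvh9, 2 in nrpe1 gp4 (1.16 CPM) and 18 in Col-0 gp4 (6.59 CPM). The most were in the window from 15311251 to 15311450, with 11 counts in suvh2, 1 in nrpe1 gp4 and 1 in Col-0 gp4. Col-0 gp2 had 7 counts there. The overlapping window from 15311101 had 7 in suvh2, 6 in Col-0 gp4 and 7 in Col-0 gp2. At IBM1 the same class held 11 counts in suvh2, 12 in nrpe1 gp4 and 0 in Col-0 gp4. The class lists are tied to these nrpe1 and Col-0 libraries. The suvh2 values rest on a single library. That library has no replicate.

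DNA methylation is given as the authors' averages per genotype, with unknown coverage, so it carries no error and no test. In the ROS1 peak window CHH methylation was 0.0% in nrpe1 and 2.62% in Col-0, CHG was 0.0% in nrpe1 and 2.38% in Col-0, and CG was 44.8% in nrpe1 and 28.1% in Col-0. The outer neighbour had 10.7% CHH in Col-0 and no value in nrpe1, and the third window of the block had no value in either. Over the RdDM class the median CHH level was 6.63% in nrpe1 and 8.53% in Col-0. Of the 118423 RdDM windows with at least 2% CHH in Col-0, 8.11% had under 0.1% in nrpe1, as the ROS1 peak window did. The ROS1 RdDM window near the lower-coordinate end had CHG of 0.0% in nrpe1 and 8.93% in Col-0, CHH of 0.0% in nrpe1 and 0.197% in Col-0, and CG of 76.8% in nrpe1 and 85.4% in Col-0. Its overlapping neighbour had CHG of 0.102% in nrpe1 and 7.88% in Col-0, and every ROS1 window not named here had less than 1% CHG in both genotypes.

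The body of ROS1 carried CG methylation in patches. CG stood 30 percentage points or more higher in nrpe1 in 4 of 21 ROS1 windows that had at least 10% in either genotype, and as much lower in 1. Over all windows of that kind the shares were 5.34% higher and 3.04% lower in the non-RdDM class, and 5.28% and 3.44% in windows without Pol V transcription. The 4 windows had 84.4% in nrpe1 and 28.4% in Col-0 (from 15308701), 47.8% in nrpe1 and 2.14% in Col-0 (from 15309151), 70.6% in nrpe1 and 0.0% in Col-0 (from 15312601), and 43.1% in nrpe1 and 0.498% in Col-0 (from 15313051). The window with less CG, from 15310651, had 0.0% in nrpe1 and 33.3% in Col-0. Each of the 4 is of the non-RdDM class and has CHG and CHH below 1% in both genotypes. Coverage behind these values is unknown, and the window from 15312451, which overlaps one of the 4, had 51.4% in nrpe1 and 51.2% in Col-0.

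The IBM1 block was methylated in nrpe1 as well as in Col-0. In its 4 windows, in order of position, CHG was 83.8%, 55.1%, 40.5% and 80.9% in nrpe1 and 73.4%, 39.6%, 32.1% and 54.2% in Col-0, higher in nrpe1 in all 4. CG in the first 3 was 86.4%, 86.9% and 87.6% in nrpe1 and 80.6%, 84.4% and 84.6% in Col-0, with no value in the fourth. CHH was 3.22%, 3.60%, 1.61% and 0.0% in nrpe1 and 4.55%, 2.99%, 1.77% and 1.73% in Col-0, without a common direction. Of 76947 RdDM windows with at least 30% CHG in Col-0, 55.9% were higher in nrpe1 and 16.7% by at least 8 percentage points, a margin chosen after the IBM1 values were seen. CHG of 10% or more occurred in no other IBM1 window and in no ROS1 window, in either genotype. In the rest of the IBM1 gene, CG reached 89.3% in nrpe1 and 85.9% in Col-0 in the windows from 2427601 to 2428550, without CHG above 1%. In the window from 2431801 it was 85.6% in nrpe1 and 89.6% in Col-0. From 2431351 to 2431700 it was 39.8% in nrpe1 and 64.9% in Col-0, and in the window from 2427001 49.5% and 26.3%. CG was lower in nrpe1 by 30 points or more in 2 of 19 IBM1 windows with at least 10% in either genotype. These were the windows from 2432251 to 2432600, with 0.0% in nrpe1 and 40.0% in Col-0 in both.

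**Figure D4:**
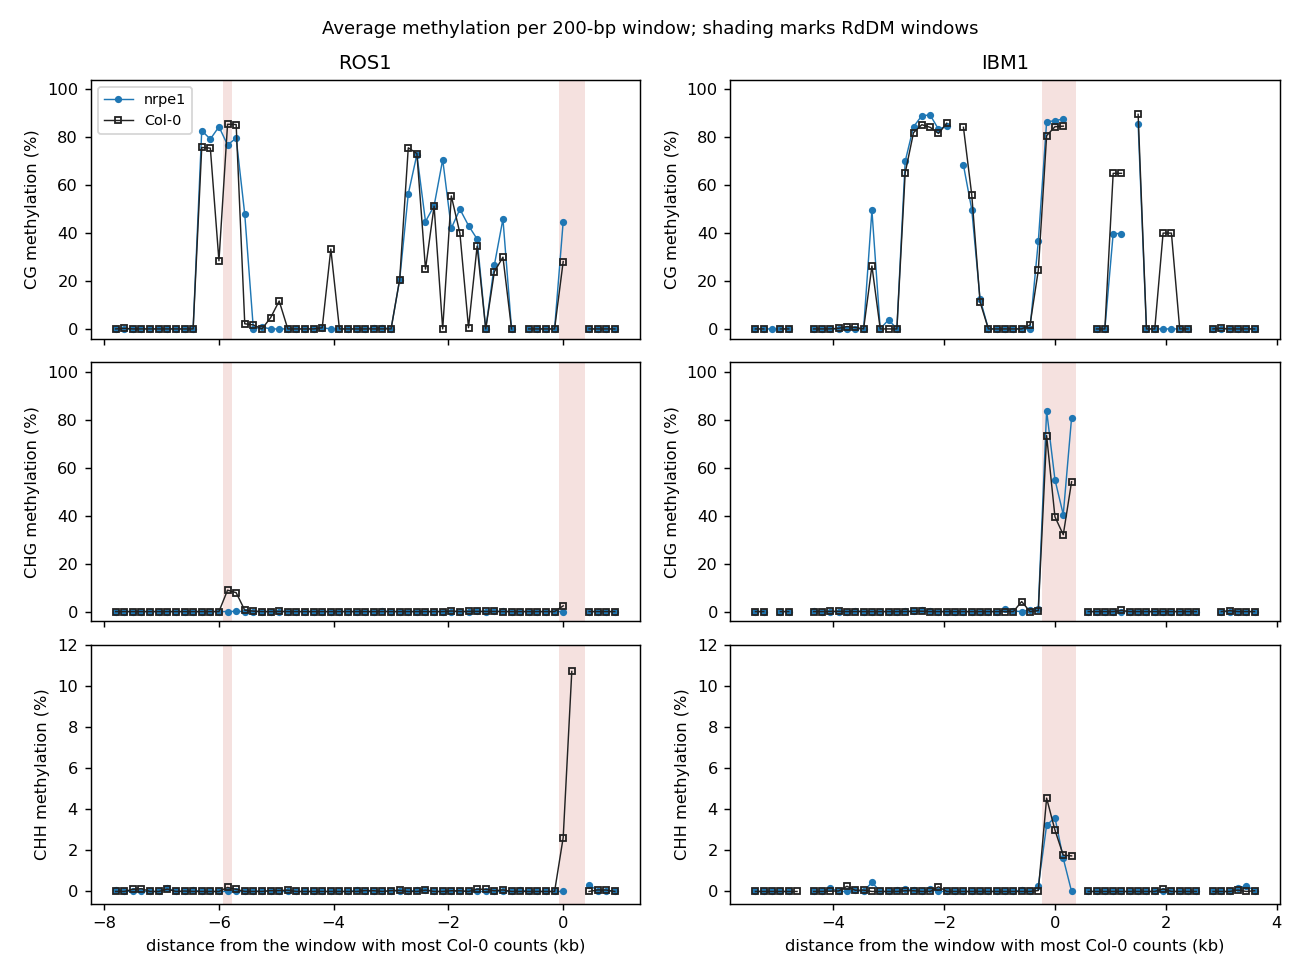
Average CG, CHG and CHH methylation in percent per 200-bp window of ROS1 (left) and IBM1 (right) in nrpe1 (filled circles) and Col-0 (open squares), against the distance from the window with most Col-0 counts in kb; shading marks RdDM windows and gaps are windows without a value. CHH at the ROS1 block reaches 10.7% in Col-0, and CHG at the IBM1 block is 40.5% to 83.8% in nrpe1 and 32.1% to 73.4% in Col-0.

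Related genes were read from 4 lists of demethylation and methylation genes, ROS1 and IBM1 among them. Of 27 genes 16 were tested, and 7 were lower and 5 higher in nrpe1; the median of their log2 changes was −0.01. Over all loci tested 50.8% were lower and 31.0% higher, with a median of −1.20. The 5 higher calls (DME, IDM1, XRCC1, EDM2 and DDM1) ended under library totals, DESeq2 size factors, the class scaling and DESeq2, where 8 to 11 of the 16 were lower. Among the demethylases ROS1 was lower, while DME, its relative that acts in the central cell, was higher at 1.25 ± 0.41 under TMM scaling, yet had 15.2 ± 7.01 CPM in nrpe1 and 15.6 ± 4.34 CPM in Col-0. ARP, an endonuclease of base excision repair, was lower at −1.998 ± 0.67. SUVH5, an H3K9 methyltransferase whose mark IBM1 removes, had 0.705 ± 0.981 CPM in nrpe1 and 26.6 ± 11.9 CPM in Col-0 (−4.46 ± 0.65). The CG maintenance methyltransferase MET1 changed by −1.16 ± 0.48 (adjusted p = 0.0301, edgeR) and did not pass with the set as a block (adjusted p = 0.145). The 6 lower genes besides ROS1 kept their direction under every scaling run. VIM1, VIM2 and VIM3, which bind hemimethylated CG for MET1, changed by −2.07 ± 0.46, −2.44 ± 0.68 and −4.05 ± 0.60; they are close copies, and the sources used here do not say how reads with several positions were placed.

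Over the 24 libraries ROS1 and IBM1 varied together, with Pearson r = 0.861 on log2(CPM + 1). The protein-coding loci most like ROS1 were PLA2-ALPHA, a phospholipase A2 gene (r = 0.977), AT3G28875 (0.973) and AT3G29690 (0.969). Those most like IBM1 were AT3G32940 (0.93), AT5G04600 (0.927) and NPSN12, a SNARE gene (0.92). The correlation exceeded 0.9 for 8.15% of the loci compared with ROS1 and for 0.0242% of those compared with IBM1. The points share library, set and depth, and the genotypes separate them, so the correlations are descriptions with no p.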

How the data were processed

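The authors deposited whole-number counts per window for 24 IPARE libraries, 3 class lists and average methylation per window, a score from 0 to 1 that is a fraction of methylated cytosines, printed here as percentages. Bowtie2, cutadapt, UMI-tools, Bismark and TAIR10 are named in the submitters' processing notes without versions. The sources used here do not give their roles, nor whether counts are 5′ ends or overlapping reads. The members and gene lists were chosen with earlier results of these data known. Gene positions came from a RefSeq table (TAIR10.1, 37887 genes) in which ROS1 is listed as DML1. Named were ROS1, IBM1, list members past the threshold and the 3 protein-coding genes most like each member, over 10 kb away.

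Counts were summed per locus (gene and 1 kb either side) for every gene and tested with edgeR 4.0.16 in R 4.3.3 (TMM, filterByExpr with minimums of 10 and 15, quasi-likelihood F-test, Benjamini-Hochberg threshold 0.05), and windows likewise. In fits by locus the library total was the sum over all loci, in which overlapping loci share windows. nrpe1 against Col-0 used 11 libraries, the other genotypes 1 model of 19; window tests in that model were added after the data were seen. DESeq2 1.42.0 and SciPy permutation tests were also used. The procedure was run on simulated counts in which few features changed, evenly in both directions. Such a run does not test the scaling where most features change, as between nrpe1 and Col-0. Nothing in the labels tells separate plantings from repeated libraries, so p-values measure the spread between libraries, which may be technical. No 2 libraries of a genotype agreed within sampling noise (chi-square per degree of freedom at least 2).

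The meaning of the set tag in the titles is not stated, and 5 sets hold both nrpe1 and Col-0. Deviations from the group means of same-set libraries correlated at 0.232 to 0.439 over the windows tested and 0.0829 to 0.368 over loci. Different-set pairs ranged from −0.309 to 0.343 over windows and −0.27 to 0.156 over loci, and 3 of them exceeded the gp6 same-set value of 0.232 over windows. Judged on the windows, the deposited unit, sets were taken as pairs, which rests weakly on the data and not on the labels. The main fits and the permutation test of 462 splits left the set out. Pairing entered the percentages of Col-0 within a set, the sign-flip test and the fits with the set as a block. The titles give the untagged and the gp2 library of Col-0 the same replicate number, and both were counted. No sequence is printed.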

Additional observations from a re-analysis of the deposited data

Results flagged for a closer look

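Of 22 groups of libraries examined for a value far from the others by Dixon's criterion, 1 stood out, where chance gives about 1 in 20. The IBM1 peak window had 1.19 CPM in nrpe1 gp6 and 0 in the other 4 nrpe1 libraries. This value is a single count in the shallowest nrpe1 library.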

How the results depend on the processing

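Depth limits every value: most ROS1 and IBM1 windows hold 0 to 5 counts in a library, 2 windows of each passed the filter for nrpe1 against Col-0, and methylation averages have no coverage. 353 alternative values were computed for 21 results, of which 307 kept their direction and side of the threshold. ROS1 in nrpe1 stayed lower under each alternative run, from −3.25 to −5.49, and 2 ROS1 windows stayed lower, except that 6 were lower with the loose filter.

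IBM1 passed where it had not before under library totals, DESeq2 size factors, the class scaling, DESeq2 and the gene alone. In that order its changes were −2.06, −1.26, −2.36, −1.28 and −1.40 for nrpe1 against Col-0, 2.23, 1.43, 2.25, 1.43 and 1.45 for spt5l against nrpe1, and −2.59, −1.71, −2.58, −1.73 and −1.83 for dms5-1 against Col-0. For ago4 against nrpe1 library totals gave 1.501, the class scaling 1.60 and DESeq2 1.15, and for drd3-3 against Col-0 library totals gave −1.79 and the class scaling −1.93. The cause was not tested. IBM1 windows lower in nrpe1 numbered 5 with the loose filter, 1 with the replicate block and 0 to 2 with 1 library left out, where fewer windows passed the filter.

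Signs turned only among changes that did not pass. For spt5l against Col-0, ROS1 was 0.13 under library totals and 0.26 with the replicate block, and IBM1 0.17 under library totals; leaving out 1 library gave −0.16 to 0.0456 for ROS1 and −0.11 to 0.11 for IBM1. For ago4 against Col-0 IBM1 was 0.0503 with the block and −0.22 to 0.0228 with 1 library left out. IBM1 in dms5-1 ranged from −3.04 to −0.32 against Col-0 and from −2.42 to 0.30 against nrpe1. The log2 ratio of ROS1 to IBM1 was −2.91 with the set as a replicate block, where the exact p cannot go below 0.0625, −3.28 to −2.70 with 1 library left out, −3.15 with a pseudocount of 0.5 and −2.33 with one of 5. Besides the ratio and the IBM1 window named above, the block changed no call of ROS1 or IBM1 tested with it.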
